A study of Homo sapiens with 6 samples.

Results

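The clustered protocadherin genes are 53 protein-coding genes on chromosome 5, out of 20033 on chromosomes 1 to 22, X and Y in the RefSeq gene table of GRCh38.p14. Membership was set by symbol (PCDHA, PCDHB or PCDHG) and chromosome, and this family was chosen with earlier results of these data known. They form 3 neighbouring clusters: PCDHA with 15 genes at chr5:140786140-141012347, PCDHB with 16 at chr5:141051374-141249365, and PCDHG with 22 at chr5:141330514-141512975. In PCDHA and PCDHG, the subfamilies are 13 alternate PCDHA genes, 12 PCDHGA genes, 7 PCDHGB genes and 5 C-type genes (PCDHAC1, PCDHAC2, PCDHGC3, PCDHGC4 and PCDHGC5).

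The study measured where MYT1L, a zinc-finger transcription factor of neurons, lies on chromatin, by CUT&RUN. In this assay a nuclease tethered by an antibody cuts the DNA around its target, and the released fragments are sequenced. All 6 libraries came from unmodified (WT) cells of H1, an established human embryonic stem cell line, at day 30: 4 with a MYT1L antibody and 2 with IgG as negative control. The series describes the cells as cortical interneurons made from stem cells, whereas the sample labels give the cell type as embryonic stem cells at passage p10-p60. Peak lists hold no expression values, so neither name could be checked against markers. Nothing in the labels says that replicates were separate cultures, so the spread between them may be technical. The sample numbers inside the 4 MYT1L lists are each 1 higher than in the titles, and the titles were followed.

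Protocadherins are cell adhesion proteins of neurons. In PCDHA and PCDHG each member begins with its own variable exon, which has its own promoter, and the chosen exon is spliced to constant exons shared by the cluster, while PCDHB genes are mostly single-exon genes. A neuron expresses only some alternate members, chosen largely at random, and the resulting combination on the cell surface lets a neurite tell its own branches from those of other cells. Promoter choice involves CTCF and cohesin, which fold distant enhancers onto variable promoters, and alternate promoters carry a conserved element whose core is CGCT. C-type members are expressed in a more uniform way.

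Promoter sequence was taken from RefSeq GRCh38.p14, as 250 bases before and 50 bases after each start, and 47 of the 53 genes were in that table. PCDHA3, PCDHA13, PCDHB6, PCDHB11, PCDHGA12 and PCDHGC5 were not. The stretches below show the conserved element in the members of that table with a downstream MYT1L peak in all 4 MYT1L libraries. They also show PCDHGA2 and PCDHGA3, with such a peak in 3, and PCDHGA9, which had none. All lie on the plus strand and read 5′ to 3′, with the core CGCT in capitals.
PCDHA2, chr5:140794779-140794814: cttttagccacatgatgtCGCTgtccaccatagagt
PCDHA4, chr5:140806977-140807012: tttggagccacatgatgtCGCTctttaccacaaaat
PCDHA5, chr5:140821540-140821575: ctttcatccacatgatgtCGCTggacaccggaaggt
PCDHA6, chr5:140827895-140827930: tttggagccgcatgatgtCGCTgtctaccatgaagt
PCDHB2, chr5:141094542-141094577: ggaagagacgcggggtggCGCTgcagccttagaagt
PCDHB3, chr5:141100391-141100426: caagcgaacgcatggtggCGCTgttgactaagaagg
PCDHB4, chr5:141121721-141121756: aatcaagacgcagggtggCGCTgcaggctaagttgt
PCDHB5, chr5:141135177-141135212: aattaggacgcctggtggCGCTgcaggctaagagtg
PCDHB12, chr5:141208641-141208676: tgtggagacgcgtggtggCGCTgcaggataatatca
PCDHB13, chr5:141213863-141213898: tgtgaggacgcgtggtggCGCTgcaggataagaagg
PCDHGA1, chr5:141330401-141330436: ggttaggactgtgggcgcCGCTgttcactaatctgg
PCDHGA2, chr5:141338701-141338736: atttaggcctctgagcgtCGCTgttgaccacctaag
PCDHGA3, chr5:141343765-141343800: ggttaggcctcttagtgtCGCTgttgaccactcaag
PCDHGA9, chr5:141402712-141402747: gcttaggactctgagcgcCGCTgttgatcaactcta

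The letters around the core differed by subfamily, a pattern seen in the sequences and then counted on the coding strand. The string GATGTCGCT was in 9 of 11 alternate PCDHA promoters, in none of the other matched members, and in 7 of 15795 promoters of other genes. The string GGTGGCGCT was in 13 of 14 PCDHB promoters, all but that of PCDHB1, and in 52 of the 15795. The string GTCGCTGTT was in 5 of 11 PCDHGA promoters, in 1 of 7 PCDHGB promoters (PCDHGB2) and in 19 of the 15795. CGCCGCTGT was shared by 5 of 11 PCDHGA and 4 of 7 PCDHGB promoters and was in 55 of the 15795. The bare core CGCT, which is far less specific, was on either strand in 46 of 47 members and in 81.0% of all 15842 protein-coding promoters. It stood on the coding strand in all 46, and in 43 it began 30 to 120 bases before the start.

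PCDHAC1 and PCDHAC2 are shown over the whole promoter window, because they were the members with MYT1L peaks at the start in every MYT1L library. Both are on the plus strand, with CGCT of the coding strand in capitals.
PCDHAC1, chr5:140926049-140926348: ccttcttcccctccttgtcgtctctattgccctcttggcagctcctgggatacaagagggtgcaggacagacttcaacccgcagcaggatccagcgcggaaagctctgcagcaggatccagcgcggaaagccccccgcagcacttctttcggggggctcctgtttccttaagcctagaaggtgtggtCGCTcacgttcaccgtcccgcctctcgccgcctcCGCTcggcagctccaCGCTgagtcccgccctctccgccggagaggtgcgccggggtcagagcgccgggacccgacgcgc
PCDHAC2, chr5:140966226-140966525: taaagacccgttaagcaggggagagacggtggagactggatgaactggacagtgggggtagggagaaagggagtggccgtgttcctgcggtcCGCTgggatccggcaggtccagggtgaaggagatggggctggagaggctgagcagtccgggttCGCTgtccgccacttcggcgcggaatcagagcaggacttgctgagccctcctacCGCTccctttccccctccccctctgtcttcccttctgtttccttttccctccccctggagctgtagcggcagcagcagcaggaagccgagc

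These C-type promoters were also richer in G and C than those of the alternate members. The 4 matched C-type promoters had a median G and C content of 61.8%, near the 62.7% of all protein-coding promoters. The other subfamilies had medians of 36% (alternate PCDHA), 40.8% (PCDHB), 38.3% (PCDHGA) and 48.3% (PCDHGB).

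On chromosomes 1 to 22, X and Y the MYT1L lists held 27926, 12310, 18966 and 30086 peaks for replicates 1 to 4, and the IgG lists held 976 and 998. Read totals are unknown. The pileup at the summit of a peak, given here as a number of fragments, was recovered from the authors' fold and p-value for every peak in the clusters. It is the depth at 1 position and not a count over the whole peak. Its median there was 13, 8, 12 and 12 fragments in MYT1L replicates 1 to 4, and the 4 IgG peaks had 6 to 9. The median local background beneath the cluster peaks was 1.32, 0.561, 1.25 and 1.04 fragments in the MYT1L libraries and 0.366 and 0.325 in the IgG libraries. Every list ended just above a −log10 q of 2, so a gene without a peak is below that threshold and not shown to be unoccupied. Cluster members resemble each other in sequence. How reads matching several members were placed is not given in the sources used here, and its part in the results was not tested.

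The clusters carried many MYT1L peaks. A peak was counted by its summit, the base of highest signal. MYT1L replicates 1 to 4 had 45, 27, 36 and 43 summits in the 3 clusters together, and both IgG libraries had 2. Per megabase this was 74.2, 44.5, 59.3 and 70.9 in the MYT1L libraries, against 8.01, 3.60, 5.59 and 8.26 over all of chromosome 5. IgG had 3.30 per megabase in the clusters in both libraries, against 0.221 and 0.215 over the chromosome.

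In PCDHA the MYT1L libraries had 15, 10, 14 and 15 peaks (13.5 ± 2.38, SD, n = 4) and the IgG libraries 2 each. In PCDHB they had 18, 11, 15 and 16 (15 ± 2.94, SD, n = 4), and IgG had none. In PCDHG they had 12, 6, 7 and 12 (9.25 ± 3.20, SD, n = 4), and again IgG had none. In each cluster every MYT1L library was above both IgG libraries. The differences of the means were 11.5, 15 and 9.25 peaks. Each gave a two-sided p of 0.133 in an exact permutation test, also after Benjamini-Hochberg adjustment over the 3 clusters. With 4 libraries against 2, no smaller p can be reached.

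That order depended on the length of the lists. Per 1000 peaks of a library, PCDHA held 0.537, 0.812, 0.738 and 0.499 peaks in MYT1L replicates 1 to 4, below the 2.05 and 2.00 of IgG (difference of means -1.38). PCDHB and PCDHG had no IgG peak to set beside the MYT1L values. Over the 3 clusters together the MYT1L libraries held 1.61, 2.19, 1.90 and 1.43 per 1000 peaks, and the IgG libraries 2.05 and 2.00. When each list was cut to its top 976 peaks by q, no MYT1L library kept a peak in any of the 3 clusters, while each IgG library kept its 2 in PCDHA. This cut was chosen after the data were seen. It left the IgG lists of 976 and 998 peaks whole or nearly whole, so they could hardly lose a peak. Of the MYT1L lists it kept only the strongest peaks by q, so the 2 sides were not cut alike. Within its own list, the median PCDHB peak stood by fold at percentiles of 75.2, 55.6, 73.3 and 56.6 in MYT1L replicates 1 to 4. The median PCDHA peak stood at 73.6, 45.6, 67.3 and 56.5, and the median PCDHG peak at 42.9, 37.2, 53.7 and 47.2. By fold, median PCDHA and PCDHB peaks were thus well above the middle of the lists of replicates 1 and 3. In replicates 2 and 4 they were nearer to it, with PCDHA in replicate 2 below it. By q, the median PCDHA peak stood at percentiles of 64.8, 37.2, 54.6 and 44.1 in MYT1L replicates 1 to 4. The median PCDHB peak stood at 67.1, 47.4, 65.2 and 49.3 by q. Both were thus below the middle by q in replicates 2 and 4, and PCDHA was near it in replicate 3.

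**Figure D1:**
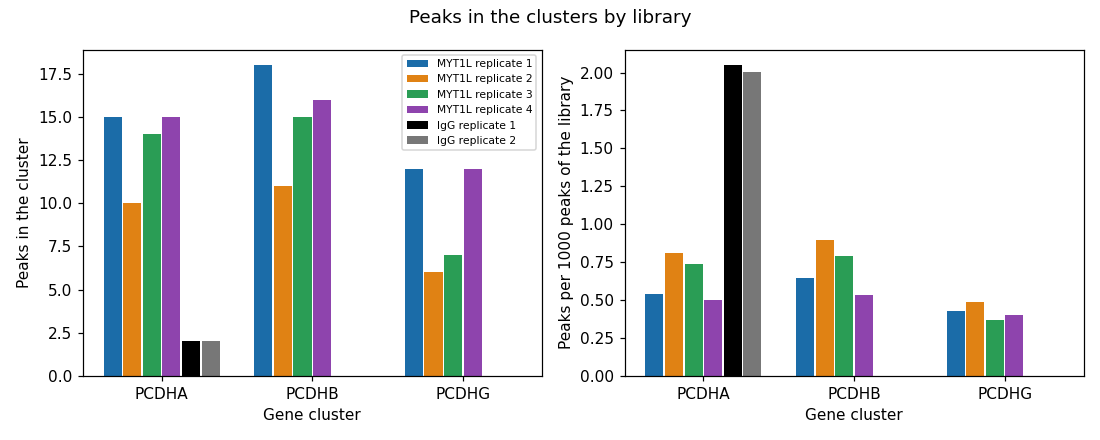
Peaks in the 3 clusters (horizontal axis) by library (colour), as a number per library on the left and per 1000 peaks of that library on the right. In number every MYT1L bar exceeds the IgG bars, while per 1000 peaks the IgG bars of PCDHA (2.05 and 2.00) are the tallest.

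The peaks lay inside the genes, about 2 kb from the start, and rarely at the promoter. Of 151 MYT1L summits in the clusters, 124 (82.1%) were 1 to 3 kb downstream of a member's start. Another 15 (9.93%) were in protocadherin pseudogenes of the clusters, 11 (7.28%) were within 1 kb of a member's start, and 1 was 3073 bp downstream of the start of PCDHGC5. Over the 4 MYT1L libraries the downstream share was 82.6 ± 4.22% and the share at starts 7.26 ± 3.16% (SD, n = 4). The downstream window was chosen after the distances were seen.

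The distance varied little. The 124 downstream summits ranged from 1200 to 2362 bp from the start, with a median of 1948 bp, and 119 of them lay between 1.5 and 2.5 kb. The median distance was 1802 bp in PCDHA (42 summits), 1981 bp in PCDHB (50) and 2056 bp in PCDHG (32). In PCDHB, whose coding sequence fills most of the gene, the summits stood at 52.3 ± 8.76% of the gene's length (SD over 50 summits, which share libraries and genes). For the genes with summits in several libraries, the median SD between libraries was 142 bp. The gene table gives no exons, so these distances are from the annotated start and not from exon borders.

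**Figure D2:**
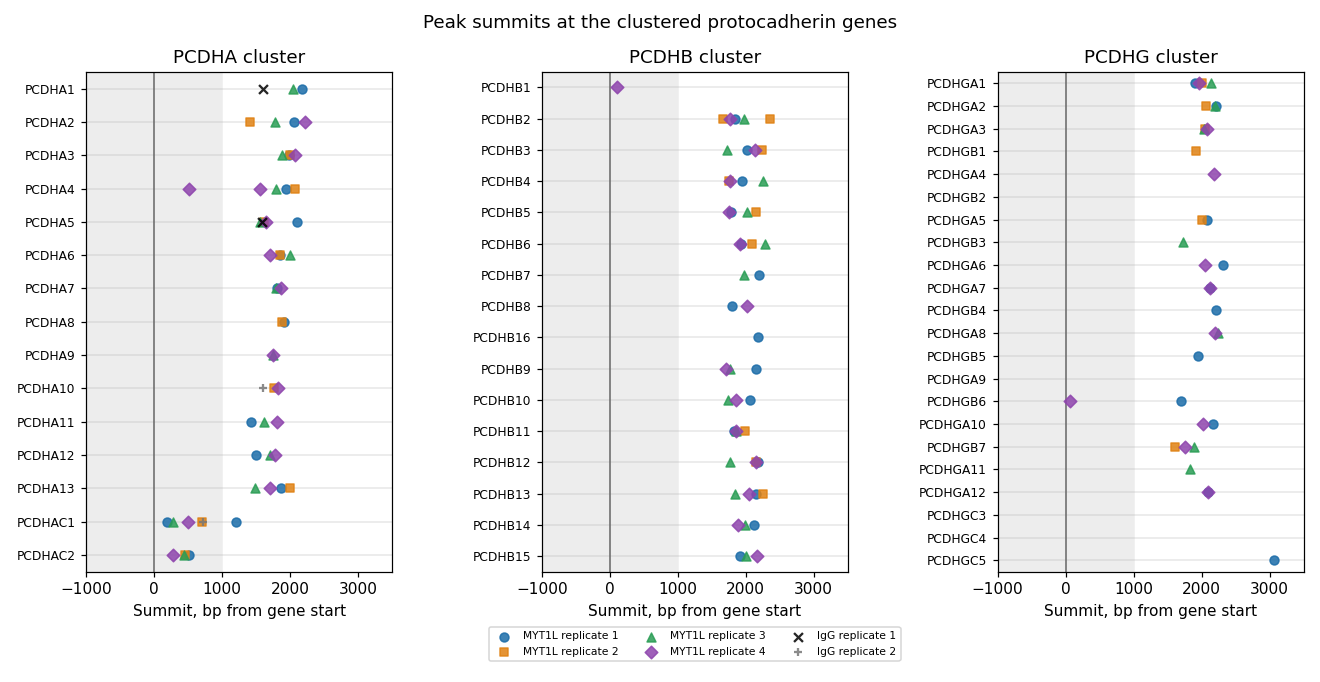
Distance of peak summits from the start of their gene (horizontal axis, bp) for every member (rows, in genome order), with colour and symbol for the library and grey for the window within 1 kb of the start. The 15 MYT1L summits in pseudogenes are not drawn. Nearly all symbols stand near 2000 bp, except those of PCDHAC1, PCDHAC2 and a few single summits.

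Downstream peaks were found across the family. A region was the union of overlapping MYT1L peaks, and it was called reproducible with peaks from at least 3 of the 4 libraries. A reproducible region lay 1 to 3 kb downstream of the start in 25 of 53 members (47.2%), against 3.39% of the 15848 protein-coding genes whose strand was known. In all 25 there was none within 1 kb of the start, a combination found in 1.49% of all genes. A summit in at least 1 MYT1L library was there in 46 members, against 10% of all genes. By replicate, 37, 22, 31 and 33 members had a downstream summit, where all genes gave 4.73%, 2.12%, 3.19% and 6.95%. The IgG libraries had 2 and 1 such members, among 11 (0.0694%) and 16 (0.101%) of all genes. Their summits in these members all lay between 1.5 and 2 kb. There IgG had 3.77% and 1.89% of members, against 0.0379% and 0.0442% of all genes. In the same span MYT1L replicates 1 to 4 had 30.2%, 18.9%, 39.6% and 35.8% of members, against 1.30%, 0.549%, 0.814% and 1.83%. The members' share exceeded that of all genes in IgG too, but on only 2 and 1 members. The span from 1.5 to 2 kb was set by where these IgG summits lay, so the shares in it are a description only.

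At the start the family stood on the other side of the background. Only PCDHAC1 and PCDHAC2 had a reproducible region within 1 kb of the start, 3.77% of members against 41.6% of all genes. A summit there in any MYT1L library was found for 5 members, against 67.6% of all genes. By replicate 2, 2, 2 and 5 members had one, where all genes gave 49.6%, 29.9%, 42.7% and 63.7%. The IgG libraries had 0 and 1 such members, where all genes gave 0.688% and 1.89%.

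**Figure D3:**
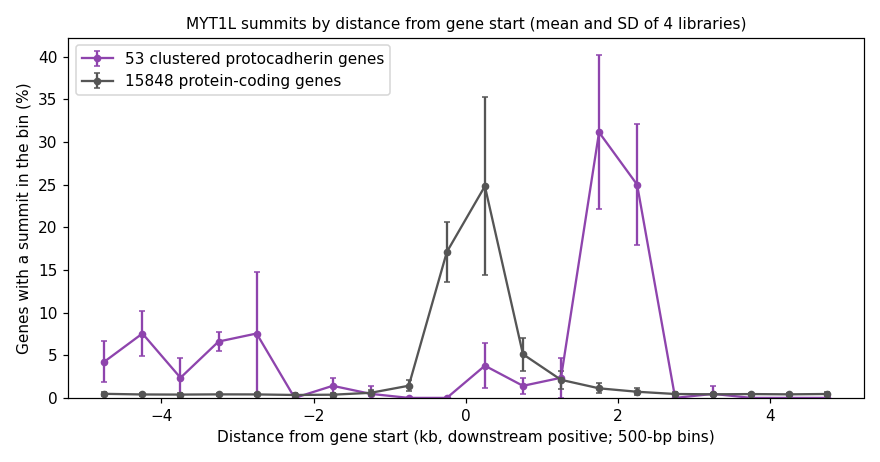
Percent of genes with a MYT1L summit in each 500-bp bin of distance from the start (horizontal axis, kb, downstream positive), as mean and SD of the 4 libraries, for members and for all protein-coding genes with known strand. All genes peak at the start, at 24.8% in the first 500 bp downstream, where members have 3.77%. Members peak at 31.1% between 1.5 and 2 kb and 25% between 2 and 2.5 kb, where all genes have 1.12% and 0.719%, and the upstream member values include peaks within the preceding gene of the cluster.

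Among the alternate PCDHA genes, which encode the variable part of the alpha proteins, all 13 had a downstream summit in at least 2 MYT1L libraries, and 6 had one in all 4. PCDHA2 had folds over background of 7.0, 6.33, 6.83 and 6.87 in replicates 1 to 4 (6.76 ± 0.292, SD, n = 4). PCDHA3 had 6.35, 6.04, 5.85 and 5.25 (5.87 ± 0.462). PCDHA6 had 6.59, 5.12, 5.64 and 5.89 (5.81 ± 0.611). These are the authors' folds for single peaks of separate lists, set side by side as a description, since the lists are not on a common scale. PCDHA13, the last alternate member, had 6.87, 4.59, 6.34 and 5.19, and PCDHA4 had 5.71, 5.0, 4.88 and 4.33. PCDHA7, PCDHA11 and PCDHA12 had a peak in 3 libraries each, while PCDHA1, PCDHA8, PCDHA9 and PCDHA10 had it in 2.

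IgG peaks in the family were all in PCDHA and stood at similar places. IgG replicate 1 had peaks at PCDHA1, 1603 bp from the start with a fold of 5.70, and at PCDHA5, 1587 bp from the start with a fold of 6.02. IgG replicate 2 had peaks at PCDHA10, 1601 bp from the start with a fold of 5.60, and at PCDHAC1, 716 bp from the start with a fold of 7.14. At PCDHA5 the IgG peak overlapped peaks of all 4 MYT1L libraries, whose folds were 5.95, 6.33, 5.36 and 5.91. Among the 25 members with a reproducible downstream region, only PCDHA5 had a region that overlapped an IgG peak. How often reproducible regions of all genes overlap an IgG peak was not counted, so this number has no background beside it. No IgG library had a peak in PCDHB or PCDHG.

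The C-type members of PCDHA, PCDHAC1 and PCDHAC2, had their shared peaks within 1 kb of the start. PCDHAC1 had summits 189, 697, 271 and 498 bp from its start in replicates 1 to 4, with folds of 5.04, 4.48, 5.20 and 10.1. Replicate 4 was high and the other 3 were close. PCDHAC2 had summits 515, 455, 437 and 280 bp from its start, with folds of 5.79, 6.13, 4.55 and 7.88. The region at PCDHAC1 overlapped the IgG peak named above, and the region at PCDHAC2 overlapped none. The fold here rested on a summit pileup of 7 to 28 fragments per library. The peaks of replicates 1 and 4 at PCDHAC2 and those of replicates 1 and 4 at PCDHAC1 reach into the promoter windows printed above. PCDHAC1 also had a separate downstream peak in replicate 1, 1200 bp from the start with a fold of 4.45.

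PCDHB, whose members lack the shared constant exons, had the highest share of members with a reproducible downstream region, 12 of 16, beside 9 of 15 in PCDHA and 4 of 22 in PCDHG. These counts were not compared by a test, since members of a cluster are not replicates. PCDHB5 had folds of 6.87, 6.21, 9.55 and 7.90 (7.63 ± 1.46, SD, n = 4). PCDHB11 had 6.68, 6.33, 6.34 and 8.63 (7.0 ± 1.10). PCDHB4 had 5.95, 6.13, 6.83 and 6.33 (6.31 ± 0.377). PCDHB2, PCDHB3, PCDHB6, PCDHB12 and PCDHB13 also had a downstream peak in all 4 libraries. PCDHB9, PCDHB10, PCDHB14 and PCDHB15 had it in 3, PCDHB7 and PCDHB8 in 2, and PCDHB16 in 1. PCDHB1, the first gene of the cluster, had no downstream peak. It had a summit 105 bp from its start in replicate 4 alone, with a fold of 5.81.

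**Figure D4:**
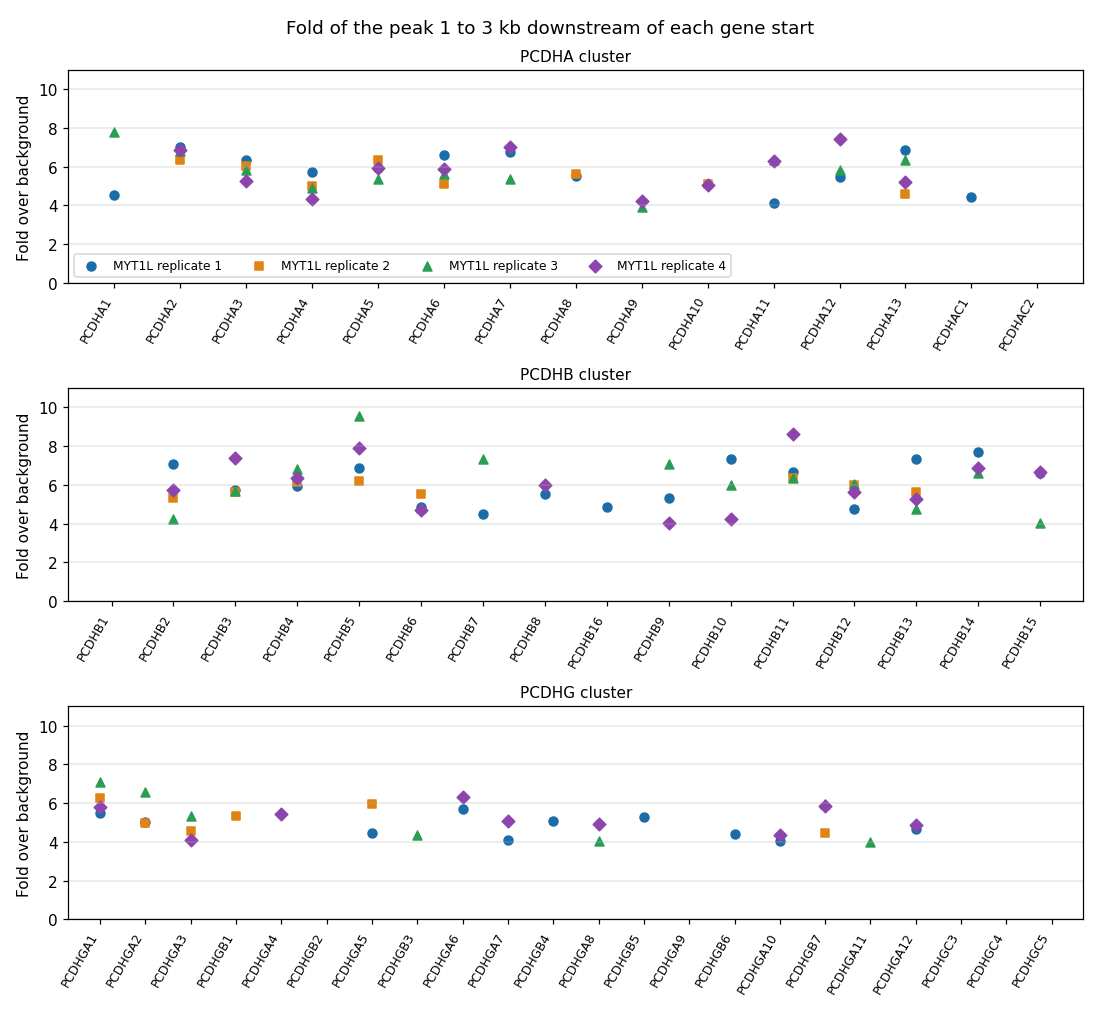
The authors' fold over background (vertical axis) of the peak 1 to 3 kb downstream of each member's start, by MYT1L library (colour and symbol), in the 3 clusters; a missing symbol means no peak in that list. PCDHA and PCDHB members often show 3 or 4 symbols, while most PCDHG members show 1 or 2.

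PCDHG members showed the same position with fewer libraries each. PCDHGA1, the first gene of the cluster, was the only PCDHG member with a downstream peak in all 4 libraries, with folds of 5.49, 6.26, 7.07 and 5.81 (6.16 ± 0.683, SD, n = 4). PCDHGA2, PCDHGA3 and PCDHGB7 had one in 3 libraries, 6 PCDHG members had one in 2 libraries, and 7 had one in a single library. Of the 21 regions of this cluster, 10 came from a single library, beside 2 of 18 in PCDHA and 2 of 19 in PCDHB. PCDHGB6 had a summit 58 bp from its start in replicate 4 alone, with a fold of 9.05. PCDHGB2, PCDHGA9, PCDHGC3, PCDHGC4 and PCDHGC5 had no peak in either window in any MYT1L library. PCDHA4 completes the members with a summit near the start, at 506 bp in replicate 4 alone with a fold of 5.22. The 3 members with a start summit in 1 library thus all had it in replicate 4, the library with the longest list.

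Pseudogenes of the clusters, which are degenerate copies of the variable exons or PCDHB genes, carried peaks at like distances. PCDHB18P had peaks in all 4 MYT1L libraries, 1861 to 2197 bp from its start, with folds of 4.95, 7.78, 5.68 and 5.39. PCDHA14 had them in replicates 1, 3 and 4, with folds of 5.95, 6.83 and 4.67. PCDHB17P had them in replicates 1, 2 and 3, with folds of 7.0, 4.93 and 6.34. PCDHB19P and PCDHGB8P had peaks in 2 libraries each, and PCDHGB9P in 1. No IgG peak lay in these pseudogenes.

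Over the 3 clusters the MYT1L peaks formed 58 regions, of which 30 (51.7%) were reproducible, against 12299 of 49028 (25.1%) in the genome. The share was 12 of 18 (66.7%) in PCDHA, 14 of 19 (73.7%) in PCDHB and 4 of 21 (19.0%) in PCDHG. PCDHG was thus below the genome, and the higher pooled share came from PCDHA and PCDHB. In all 3 clusters the regions overlapping IgG numbered 4, each in PCDHA. The same share over all regions of the genome was not counted, and the IgG lists are far shorter than the MYT1L lists. This low number is thus not shown to be particular to the clusters.

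Other genes of the pathway and other clustered families were counted in the same way. Over all genes, 41.6% had a reproducible region at the start. Of 11 non-clustered protocadherins with known strand, 2 (18.2%) had a reproducible region at the start and none downstream. A downstream summit in at least 1 MYT1L library was found for 6 of the 11, among them PCDH1, PCDH7 and PCDH8, beside 46 of 53 clustered members and 10% of all genes. The 2 with a region at the start were PCDH9, with folds of 6.66, 5.44, 4.72 and 8.56, and PCDH15, with folds of 5.81, 6.26 and 8.0 in replicates 1, 3 and 4. Of 12 architectural and silencing regulators of the clusters, 8 (66.7%, against 41.6% of all genes) had a region at the start and none downstream. Among them was CTCF, the zinc-finger protein that anchors the chromatin loops, with folds of 5.51, 4.88, 5.36 and 8.56. Also among them was SMCHD1, a repressor of the clusters, with folds of 6.01, 7.53, 8.69 and 10.1. Of 8 genes listed here as kinases and partners of protocadherin intracellular domains, 6 (75%, against 41.6% of all genes) had a region at the start. In this list 1 gene, ROBO1, had it downstream (12.5%, against 3.39% of all genes), and its place in the list was not checked. These lists are short, and the shares were not tested against those of all genes.

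The surrounding genes of chromosome 5 also had their peaks at the start. Of 5 neighbouring genes with known strand, 3 (60%, against 41.6% of all genes) had a reproducible region at the start, and none had it downstream. The 3 were HARS1, HARS2 and DIAPH1. DIAPH1, an actin-nucleating formin beyond PCDHG, had folds of 7.69, 5.32, 6.40 and 7.13. HARS1 and HARS2, histidine tRNA synthetase genes that start side by side, share 1 region. Of 58 clustered histone genes, 17 had a reproducible region at the start and 4 downstream, and of 20 HOX genes, 1 and 0. At the start this was 29.3% and 5%, against 41.6% of all genes. A downstream summit in at least 1 MYT1L library was found for 15 of the 58 histone genes and 3 of the 20 HOX genes. Both shares were above the 10% of all genes. The reproducible downstream share of the histone and HOX genes was 6.90% and 0%, beside 47.2% for the clustered protocadherins and 3.39% for all genes.

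**Figure D5:**
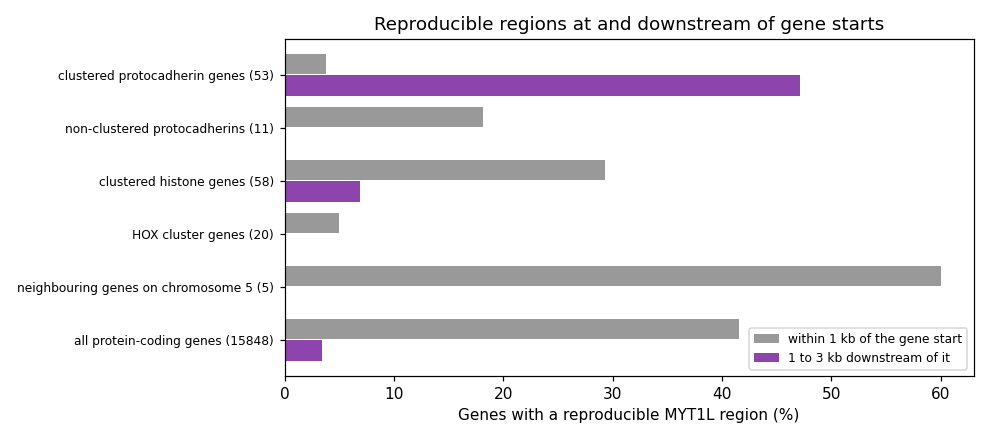
Percent of genes (horizontal axis) with a reproducible MYT1L region within 1 kb of the start (grey) and 1 to 3 kb downstream of it (purple), by gene list, with the number of genes with known strand in parentheses. The clustered protocadherins have 47.2% downstream and 3.77% at the start, against 3.39% and 41.6% for all genes.

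Other short motifs were searched on both strands of the promoter windows. AAGTT, the core bound by the MYT1 family, was in 29 of 47 members (61.7%) and in 29.4% of all promoters. The longer AAGTTT, whose matches are contained in those of AAGTT, was in 14 members (29.8%) and 10.7% of all promoters. CCCTC, part of the CTCF motif, was in 12 members (25.5%) and 76.5% of all promoters, and CANNTG, the E-box, was in 27 (57.4%) and 64.6%. The G and C content of these windows differed as well, with a median of 39.7% in members and 62.7% in all promoters, and its part in the motif shares was not tested. AAGTT was in 13 of 21 members with a downstream peak in 3 or more MYT1L libraries and in 16 of 26 others. The windows end 50 bases after the start, so none of them covers the downstream summits, whose sequence was not analysed here.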

How the data were processed

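Each of the 6 CUT&RUN libraries had 1 peak list, deposited with no header. MACS2 and build hg38 are named in the submitters' processing notes; version, aligner, threshold and control are not given in the sources used here. The authors' values per peak are a fold over background (a ratio), a −log10 p, a −log10 q and a score. Peaks were ranked and filtered by them inside a list. Folds of different lists are set side by side, with mean and SD, as a description without a test. Coordinates count from 1.

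Genes came from RefSeq GRCh38.p14. Strand came from the promoter table and was known for 15848 protein-coding genes, with the 6 unmatched members taken to lie on the plus strand like the others. Summits were assigned within 1 kb of a gene start, or 1 to 3 kb downstream. Peaks sharing at least 1 bp formed regions. The pileup at each summit was recovered from the deposited fold and −log10 p, assuming that the fold is (pileup + 1) / (background + 1). It was whole for all cluster peaks within a tolerance of 0.0002. Whether the caller counted fragments or reads is not given in the sources used here. Cluster counts were compared by exact permutation. Python 3.11.15, pandas 2.3.3, NumPy 2.4.6, SciPy 1.17.1 and matplotlib 3.10.9 were used.

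Members with a start summit in 3 or more MYT1L libraries were named with all values, those in 1 or 2 with their range, and downstream peaks where 2 MYT1L libraries or an IgG library had them; other downstream members were named after their values were seen. The members and gene lists were chosen with earlier results of these data known. Alternatives were the q threshold, list length, window, region rule, leaving out libraries and a replicate block.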

Additional observations from a re-analysis of the deposited data

Results flagged for a closer look

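In 5 of 37 groups of 4 MYT1L values, 1 library stood far from the other 3, where chance flags about 1 in 20 groups. At PCDHAC1 the start peak had a fold of 10.1 in replicate 4, above 5.04, 4.48 and 5.20. At PCDHB3 the downstream fold was 7.39 in replicate 4, above 5.74, 5.63 and 5.71. At PCDHB11 it was 8.63 in replicate 4, above 6.68, 6.33 and 6.34. All 3 high folds were in replicate 4, which had the longest peak list, and folds of separate lists are not on a common scale. Among distances, PCDHA5 had its summit 2096 bp from the start in replicate 1, beyond the others at 1558 to 1643 bp. PCDHB12 had its summit at 1768 bp in replicate 3, nearer the start than in the other libraries.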

How the results depend on the processing

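Excess of MYT1L over IgG peaks in PCDHA turned to -1.38 per 1000 peaks and to -2 with the top 976 peaks of every list. The latter alternative, chosen after the data were seen, brought PCDHB and PCDHG to 0. It left the IgG lists whole or nearly whole and kept only the strongest MYT1L peaks, so the 2 sides were not cut alike. With 1 library left out the differences were 11 to 12.7 (PCDHA), 14 to 16.3 (PCDHB) and 8.33 to 10.3 (PCDHG). MYT1L and IgG libraries share the replicate numbers 1 and 2, and the labels do not say whether same-numbered libraries share a culture or preparation. Same-numbered deviations over 1 Mb bins correlated at r = 0.0295 and 0.0561. With those numbers as a replicate block the differences were 10.5, 14.5 and 9 peaks, with an exact two-sided sign-flip p of 0.5, the smallest that 2 pairs allow. Reproducible regions at the start, 2 members, became 1 at −log10 q of at least 5, 1 without regions holding an IgG peak, 1 with summits joined within 200 bp, 26 within 2 kb and 29 within 5 kb. Members with any start summit, 5, became 3 with equal numbers of top peaks per MYT1L library, 37 within 2 kb and 51 within 5 kb. Leaving out 1 library gave 2 to 5, with 2 only without MYT1L replicate 4. The start share of 7.26% became 17.3% with equal numbers of top peaks, with an SD of 21.9% between libraries, larger than the mean. It became 54.3% within 2 kb and 92.7% within 5 kb, and 5.80 to 8.20% without 1 library. Windows of 2 and 5 kb also take in summits of the downstream peaks, and that of 5 kb takes in summits of the preceding gene. The higher values of those windows are thus not counts of peaks at the start. The 25 members with a reproducible downstream region became 12 at −log10 q of at least 5, 9 with equal numbers of top peaks and 15 when all 4 libraries were required. Shares over all genes were not counted at these alternative settings, so the changed member counts have no background beside them. Cluster peaks had a summit pileup of 6 to 28 fragments each, read totals are unknown, and the part of depth in these counts was not tested.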

Other observations

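Between PCDHA and PCDHB lies an interval without protein-coding members. MYT1L replicates 1 and 4 had overlapping peaks there, at chr5:141040871-141041396 (fold 5.49) and chr5:141041069-141041335 (fold 4.29), with summits 28.8 kb beyond the end of PCDHA and 10.2 kb before PCDHB1. Replicate 4 had another peak nearby, at chr5:141040026-141040400, with a fold of 8.48. Replicates 2 and 3 and both IgG libraries had none there. Between PCDHB and PCDHG, TAF7, a subunit of the general transcription factor TFIID, had a peak at its start in replicate 4 alone, with a fold of 6.85.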
